A study of Homo sapiens with 16 samples.

Results

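Transcripts of 40 genes of mitosis and the G2/M transition were followed in MCF10A, an immortalized and non-tumorigenic human breast epithelial cell line. The members were the entries of the deposited count table whose symbol is on a list of these genes, and all 40 were found among the 26475 entries and passed the filter on low counts in every comparison. The 16 libraries formed 4 groups of 4, all labelled as diploid MCF10A. The control group received DMSO as vehicle and no collagen. The collagen group received DMSO with collagen 1 at 0.05 mg/mL, the DDR1i group received the same collagen with 2 µM DDR1-IN-1, an inhibitor of the collagen receptor kinase DDR1, and the RUNXi group received it with 5 µM of a RUNX inhibitor (RUNXi), a small molecule that blocks the binding of the RUNX transcription factors to their partner CBFβ. Vehicle or inhibitor was present for 48 h and collagen for the last 24 h. The study used these cultures to ask whether DDR1 and RUNX1 act on a common set of genes. A single cell line at 1 dose and 1 time was examined, no group received an inhibitor without collagen, and since nothing in the labels says that replicates came from separate cultures, p-values measure the spread between these libraries only.

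Entry into mitosis is driven by the kinase CDK1 bound to cyclin B, which CDC25 phosphatases switch on and which Polo-like and Aurora kinases act beside. The spindle checkpoint then holds the anaphase-promoting complex until every kinetochore is attached, and the destruction of cyclin B and securin starts anaphase. Many of these genes are transcribed late in the cell cycle through a promoter element called CHR, which the DREAM and MMB-FOXM1 complexes bind, often with CCAAT boxes upstream. In bulk RNA a lower level can come from fewer cells in G2 and mitosis or from less RNA in each such cell, and these cannot be told apart here.

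The promoters of the genes that the results turn on are shown because TTTGAA, the letters searched for as CHR, is easy to see in some of them and absent from others. RefSeq promoter windows on GRCh38.p14, from 250 bases before to 50 bases after the start site, were matched to 33 of the 40 genes. The CHR letters TTTGAA, read on either strand, were in 23 of these windows (69.7%), against 15.4% of all 27305 promoter windows, 46.0% of the 87 windows of other mitosis genes and 2.44% of the 41 windows of S-phase genes. CCAAT, also read on either strand (ATTGG where it lies on the other one), was in 25 (75.8%) against 35.7% of all windows, 58.6% of those of other mitosis genes and 51.2% of those of S-phase genes. Both motifs were in 19 (57.6%), against 6.08%, 28.7% and 2.44%. The last 160 bases before the start site are printed 5′ to 3′ in the direction of transcription, with both motifs in capitals. They are chr10:128126424-128126583 on the minus strand for MKI67, chr17:8210226-8210385 on the minus strand for AURKB, chr1:214603035-214603194 on the plus strand for CENPF, chr5:160421695-160421854 on the plus strand for PTTG1 and chr15:59104986-59105145 on the plus strand for CCNB2.
MKI67: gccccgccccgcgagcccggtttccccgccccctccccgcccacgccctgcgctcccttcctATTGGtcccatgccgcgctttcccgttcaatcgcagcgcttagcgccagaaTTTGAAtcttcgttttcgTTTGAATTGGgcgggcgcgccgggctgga
AURKB: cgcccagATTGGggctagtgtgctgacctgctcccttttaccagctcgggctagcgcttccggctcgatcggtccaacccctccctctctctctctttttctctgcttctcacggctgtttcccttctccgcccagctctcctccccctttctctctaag
CENPF: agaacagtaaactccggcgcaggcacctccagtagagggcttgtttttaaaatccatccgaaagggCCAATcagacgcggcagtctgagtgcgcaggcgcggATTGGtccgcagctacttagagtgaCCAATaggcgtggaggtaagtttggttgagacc
PTTG1: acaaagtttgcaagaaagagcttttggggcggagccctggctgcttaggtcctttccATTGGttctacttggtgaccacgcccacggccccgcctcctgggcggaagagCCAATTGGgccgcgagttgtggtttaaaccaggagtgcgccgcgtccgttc
CCNB2: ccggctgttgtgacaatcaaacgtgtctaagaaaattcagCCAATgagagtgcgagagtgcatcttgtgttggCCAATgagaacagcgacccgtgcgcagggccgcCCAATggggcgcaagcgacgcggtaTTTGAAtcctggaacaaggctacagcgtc
The MKI67 promoter held 2 CHR matches, beginning 47 and 29 bases before the start, and in the one nearer to the start the last base is shared with a CCAAT match on the other strand. CCNB2 had its CHR match 29 bases before the start, with 3 CCAAT boxes upstream of it in the printed bases. The match of CENPF began 41 bases after the start and is therefore outside the printed bases. AURKB and PTTG1 had no TTTGAA in the window, and in PTTG1 a pair of CCAAT matches on opposite strands overlap. No other letters were searched for as CHR, so a missing match does not show that the element is absent. A match describes the letters of the window and was not related to the measurements below.

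Library depth ranged from 12184619 to 44332378 counts, so the lowest count of any member in any library was still 257 (CDC25C). The members together took 0.618% to 0.845% of the counts of a library. All 8 epithelial markers examined were present, their summed level reaching 10100 to 20300 CPM (counts scaled to the normalized library size) in a library. Summed markers of fibroblasts (6 genes), immune cells (4 genes) and endothelial cells (3 genes) reached at most 32.9, 28.7 and 2.4 CPM, and 1 gene of each of these lists was at 0 in all libraries. The authors removed collagen replicate 3 as an outlier, and it was left out of the fits here, with values including it given beside each call. Collagen replicate 4 also stood apart, since short transcripts were high and long transcripts low in it.

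Per kilobase of transcript, the most abundant members were PTTG1 (securin) at 310.5 CPM per kb, UBE2C, the ubiquitin-conjugating enzyme of the anaphase-promoting complex, at 253, and CDC20, its activator, at 239. The kinetochore motor CENPE was lowest at 7.98 CPM per kb. Levels in single libraries were close to each other: the ratio of the highest to the lowest of the 16 libraries ran from 1.35 for cyclin A2 (CCNA2) to 2.64 for MKI67. The mean log2 level of the 40 genes, relative to the mean of each gene over all libraries, lay between -0.22 (RUNXi replicate 3) and 0.20 (DDR1i replicate 2). Its group means were 0.04 in control, 0.05 in collagen without replicate 3, 0.01 in DDR1i and -0.08 in RUNXi, and the libraries of the groups overlapped.

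**Figure D1:**
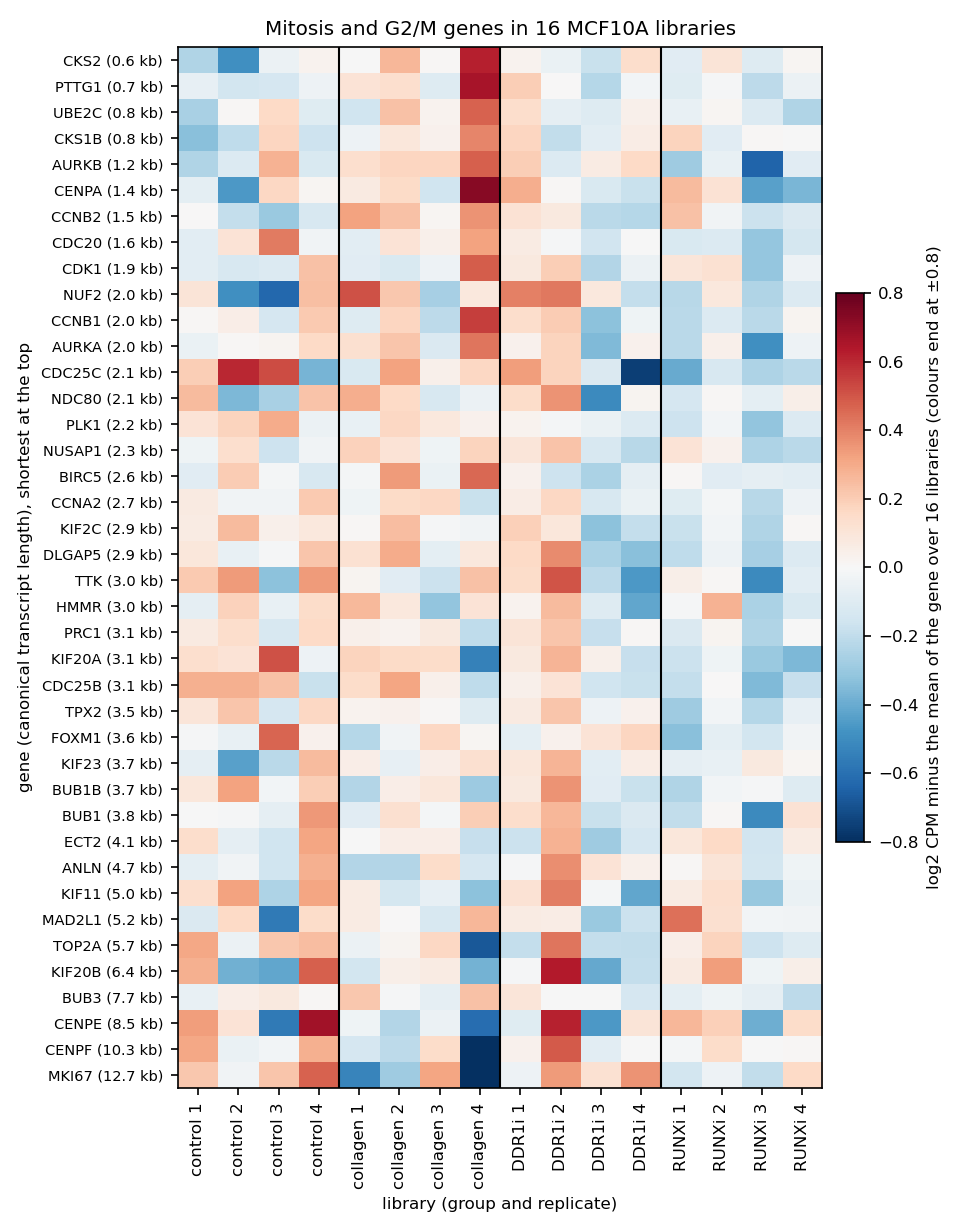
Log2 CPM of each of the 40 genes (rows, shortest transcript at the top) in each of the 16 libraries (columns), relative to the mean of that gene over all libraries. Collagen replicate 4 is high for the short transcripts at the top and low for most of the long ones at the bottom, with MKI67, CENPF and CENPE among its lowest values.

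Among the 40 genes, 1 passed the edgeR test with DDR1i against collagen and 2 with RUNXi, and the rest did not. Below, passing refers to this test. With DDR1i 1 gene rose (MKI67) and none fell, where 2.47% of the 13548 tested genes passed, 1.69% higher and 0.775% lower. At an unadjusted p under 0.05, 3 members were higher and 4 lower, against 9.88% and 8.14% of all tested genes. DESeq2 called 3 members higher (CENPF, ANLN and MKI67) and 1 lower (BIRC5), where it called 6.08% of genes. The members' median log2 fold change was -0.11, against 0.004 over all tested genes, with 26 of 40 below 0 where 49.7% of genes were. Single libraries moved it between -0.16 (without DDR1i replicate 2) and -0.04 (without DDR1i replicate 3), and it was -0.05 without collagen replicate 4 and -0.06 without DDR1i replicate 4. With RUNXi MKI67 rose and AURKB fell, where 4.05% of tested genes passed, 2.59% higher and 1.46% lower. The median was -0.18 against 0.005 over all tested genes, with 30 of 40 below 0 where 49.5% of genes were. At an unadjusted p under 0.05, 2 members were higher and 14 lower, against 10.8% and 10.2% of all tested genes. DESeq2 called 1 higher (MKI67) and 5 lower (AURKA, AURKB, CDC20, PTTG1 and BIRC5), where it called 8.44% of genes. The 95% intervals of single members, not adjusted for the number of genes, extended 0.228 to 0.452 either side of the DDR1i estimates. A call needed an adjusted p under 0.05, so changes larger than the reach of their interval could be missed too. With DDR1i this held for CENPF at 0.50 (edgeR adjusted p = 0.0862) and BIRC5 at -0.39 (0.0813), whose intervals did not reach 0. It also held for ANLN, which was higher, and for CCNB2, CKS2 and PTTG1, which were lower. Both inhibitor comparisons use the same 3 collagen libraries, so their values are given side by side and are not independent of each other. Summed epithelial markers were lower in DDR1i (10100 to 13100 CPM) than in collagen (14900 to 20300), and their part in the DDR1i values was not tested.

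**Figure D2:**
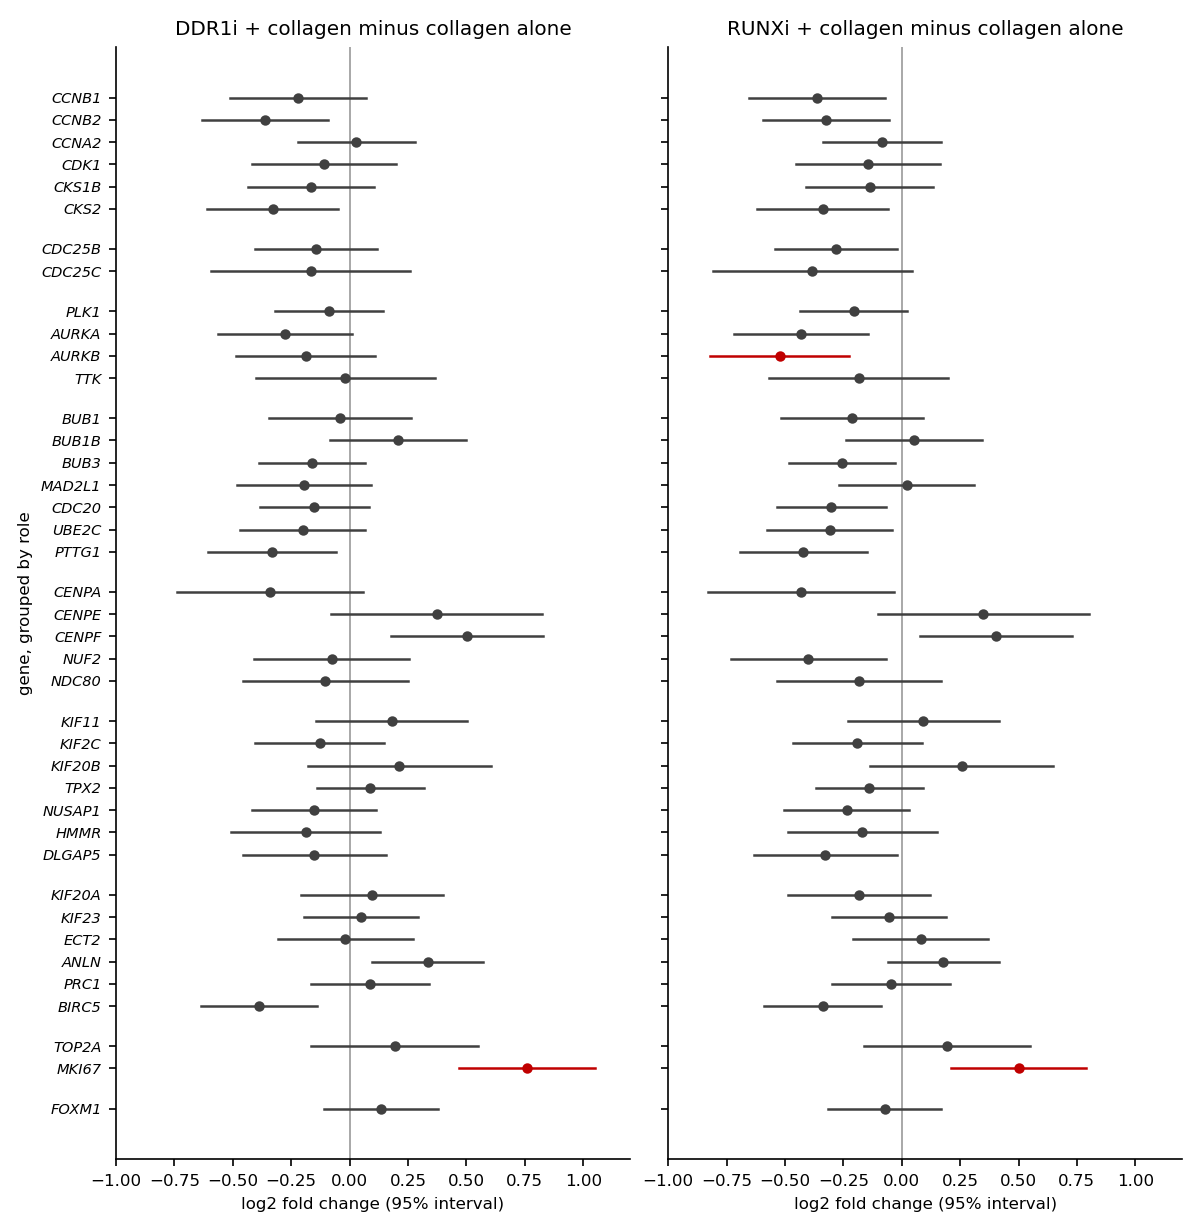
Log2 fold change with its 95% interval for each of the 40 genes, grouped by role, for collagen + DDR1i (left) and collagen + RUNXi (right) against collagen without replicate 3 (n = 4 and 3). Red marks adjusted p under 0.05: MKI67 at 0.76 and 0.50, and AURKB at -0.52 with RUNXi.

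MKI67 encodes Ki-67, a protein that coats mitotic chromosomes and is the usual stain for proliferating cells, and it lies on chromosome 10 at 129894923 to 129924687 on the minus strand (GRCh37). Its level was 283, 336 and 214 CPM in collagen replicates 1, 2 and 4, and 508 in replicate 3. The DDR1i libraries were at 397, 516, 444 and 522 CPM, all above those 3 but on both sides of replicate 3. The RUNXi libraries were at 368, 396, 356 and 455 CPM, again above the 3 collagen libraries. In control it was at 473, 399.6, 476 and 565 CPM, above all 3 collagen libraries and overlapping both inhibitor groups, with the highest control library above every inhibitor library. The log2 fold change with DDR1i was 0.76 (SE 0.14), 1.69-fold, with an adjusted p of 0.00621 in edgeR's quasi-likelihood test. With RUNXi it was 0.50 (SE 0.14) with an adjusted p of 0.0437. The call rested on the choice of collagen libraries: with replicate 3 included the adjusted p was 0.493 for DDR1i and 0.649 for RUNXi, and without replicate 4 it was 0.0197 and 0.192. Leaving out collagen replicate 1 or any of the RUNXi libraries or DDR1i replicate 3 also took the RUNXi call over the threshold, with adjusted p up to 0.12. Against the control group, in a fit of all 4 groups, MKI67 was at -0.03 (SE 0.13) with DDR1i and -0.28 (SE 0.13) with RUNXi, with adjusted p of 0.998 and 0.733. No member passed against the control with either inhibitor, where 0.124% and 0.255% of tested genes did. The members' median against the control was -0.029 with DDR1i and -0.14 with RUNXi, where all tested genes had 0.005 and 0.001.

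TOP2A, the topoisomerase that untangles sister chromatids and the other gene of chromosome structure on the list, was at 342, 359 and 220.4 CPM in collagen replicates 1, 2 and 4. DDR1i libraries were at 309.9, 475, 309 and 309 CPM and RUNXi libraries at 367, 399, 315 and 329. The groups overlapped, and the fold change was 0.19 with each inhibitor and passed in neither.

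Of the 4 mitotic kinases, 1 fell with RUNXi and none passed with DDR1i. AURKB is the kinase of the chromosomal passenger complex, which corrects faulty kinetochore attachments, and it lies on chromosome 17 at 8108051 to 8113918 on the minus strand (GRCh37). It was at 99.2, 102 and 126 CPM in the 3 collagen libraries and 102 in replicate 3. The RUNXi libraries were lower, at 74.4, 86.9, 58.0 and 85.2 CPM, with no overlap, also with replicate 3 counted. The DDR1i libraries were at 103.7, 83.8, 94.8 and 101 CPM and overlapped both groups, as did control at 76.7, 83.9, 109.9 and 83.1. The log2 fold change with RUNXi was -0.52 (SE 0.14; adjusted p = 0.0408), and -0.51 with an adjusted p of 0.133 once replicate 3 was included. Without collagen replicate 4 the adjusted p was 0.207, and without RUNXi replicates 1, 3 or 4 it was 0.0785, 0.117 and 0.0531. AURKA, which acts at spindle poles, was also below the collagen libraries in every RUNXi library, at 160.3, 192, 132 and 181 CPM against 203, 217 and 249.7, but its adjusted p was 0.0759 and replicate 3 at 172 CPM lay among the RUNXi values. PLK1, the Polo-like kinase of mitotic entry, was at 217, 253 and 232 CPM in the 3 collagen libraries, 209 to 231 in DDR1i and 182 to 222 in RUNXi, and TTK passed in neither comparison.

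No cyclin, CDK1 or CKS gene passed. Cyclin B1 (CCNB1) was at 329.9, 399 and 519.9 CPM in collagen, against 391, 409, 283 and 346 with DDR1i and 306, 329, 306 and 361 with RUNXi. Its groups overlapped, and collagen replicate 4 was the highest of all 16 libraries. CDK1 had the same library on top, at 208 CPM, with the other collagen libraries at 137 to 145 and the inhibitor groups at 120.2 to 171. Cyclin B2 (CCNB2) was at 133, 126 and 137 CPM in the 3 collagen libraries and lower in all DDR1i libraries (115, 113, 91.5 and 90.9) and all RUNXi libraries (125, 105, 94.5 and 98.1). Its log2 fold changes of -0.36 (SE 0.13) and -0.33 (SE 0.13) did not pass, and replicate 3, at 108 CPM, fell within the inhibitor groups. The phosphatases CDC25B and CDC25C were both below 0 with each inhibitor and passed with neither.

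None of the 7 spindle checkpoint and anaphase genes passed, although several of the short ones were low with RUNXi. PTTG1, the securin that anaphase destroys, was at 237, 241 and 347 CPM in collagen replicates 1, 2 and 4. It was at 205, 218, 189.9 and 213 CPM with RUNXi, all below these, and at 251, 219.6, 188 and 217 with DDR1i. The RUNXi difference was -0.42 (SE 0.13; adjusted p = 0.0689), and replicate 3, at 204 CPM, was within the RUNXi range. Without collagen replicate 4 it was -0.21 (adjusted p = 0.439), and without collagen replicate 1 it was -0.54 (adjusted p = 0.0365). CDC20 was at 370.0, 422 and 489.5 CPM in collagen and at 359, 362, 316 and 356 with RUNXi, also below all 4 collagen libraries, with a difference of -0.30 (SE 0.11) that did not pass. BUB1, a checkpoint kinase at kinetochores, was at 109, 127 and 134 CPM in collagen, 103 to 139.9 with DDR1i and 81.8 to 126 with RUNXi. BUB3, which recruits BUB1 and BUB1B, varied least of all members, with a coefficient of variation of 8.28% over the 16 libraries.

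Of the 5 centromere and kinetochore genes, none passed, and they split by direction. CENPF, a large outer kinetochore protein, was at 349, 330.1 and 206 CPM in the 3 collagen libraries and 423 in replicate 3. All DDR1i libraries (391, 537, 361 and 382) and all RUNXi libraries (378, 424, 382 and 384) were above the first 3. The log2 fold changes were 0.50 (SE 0.16; adjusted p = 0.0862) and 0.40 (SE 0.16). The first was 0.30 without collagen replicate 4 (adjusted p = 0.299) and 0.63 without collagen replicate 1 (adjusted p = 0.0463). NUF2, a microtubule-binding subunit of the NDC80 complex, went the other way with RUNXi, at 42.6, 52.7, 42.2 and 46.1 CPM against 70.8, 57.7 and 52.7 in collagen, and its difference of -0.40 (SE 0.16) did not pass.

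None of the 7 spindle motor and microtubule genes and 6 cytokinesis genes passed with either inhibitor. DESeq2 called ANLN and BIRC5 with DDR1i and BIRC5 with RUNXi. BIRC5 (survivin), a partner of AURKB in the passenger complex, was at 169.6, 217 and 235 CPM in collagen and at 175, 152, 144 and 163 with DDR1i. Replicate 1 of collagen lay within the DDR1i values, and the difference of -0.39 (SE 0.12) had an adjusted p of 0.0813. It was 0.0303 without collagen replicate 1 and 0.0476 without DDR1i replicate 1. ANLN, the cytokinetic ring scaffold, was at 355, 356 and 381 CPM in collagen and above these in all DDR1i libraries at 415, 540, 450.4 and 429, though replicate 3 at 462 CPM was among them and the gene did not pass. FOXM1, the transcription factor that works through CHR elements, was at 145, 166 and 171 CPM in collagen, 160.4 to 191 with DDR1i and 134 to 166 with RUNXi, with overlapping groups.

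**Figure D3:**
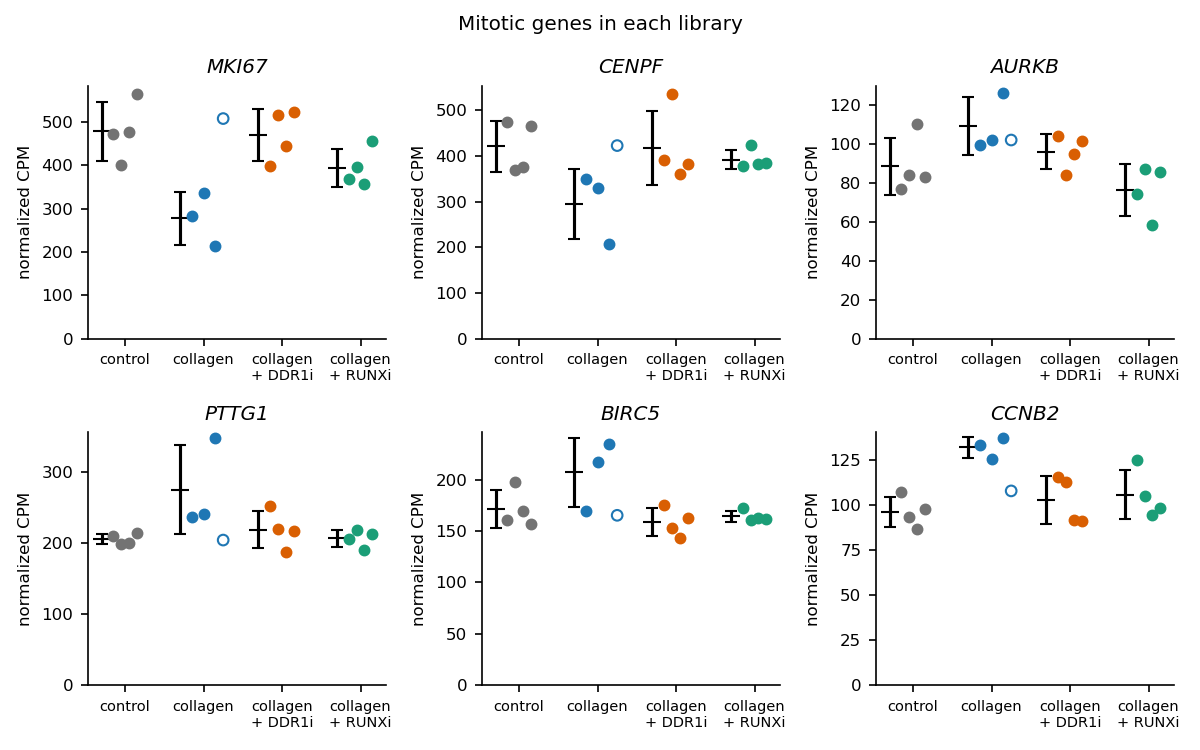
Normalized CPM of 6 members in each library (points), with mean and SD at the left of each group and collagen replicate 3 as an open circle outside the mean. For MKI67 the 3 filled collagen points (214 to 336) lie below all inhibitor points, and the open one (508) does not.

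Counting only whether libraries overlapped, DDR1i was wholly above collagen for CENPF, ANLN and MKI67 and wholly below for CCNB2, 4 of 40 genes where 15.1% of tested genes did not overlap (8.44% above and 6.71% below). RUNXi was wholly above for CENPF and MKI67 and wholly below for 9 genes (CCNB2, CDC25C, AURKA, AURKB, BUB3, CDC20, PTTG1, NUF2 and DLGAP5), where 18.3% of tested genes did not overlap (9.46% above and 8.79% below). For NUF2 and CCNB2 the nearest RUNXi and collagen libraries were almost level, at 52.71 against 52.74 CPM and 125.1 against 125.5 CPM. Once collagen replicate 3 was counted in, none of the 40 was separated with DDR1i and 3 were lower with RUNXi, and the share over all tested genes dropped as well, to 3.05% and 5.15%.

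The inhibitors were not shown to differ from each other on any member. None of the 40 passed in DDR1i against RUNXi, where 0.568% of tested genes did, and no member's libraries were separated, where 4.5% of genes were. The members' median difference was 0.11 with 32 of 40 higher in DDR1i, where 48.8% of tested genes had a difference below 0. This median was 0.04 without DDR1i replicate 2, 0.16 without DDR1i replicate 3 and 0.06 without RUNXi replicate 3. At an unadjusted p under 0.05, 3 members were higher and 0 lower, against 3.2% and 2.99% of genes, namely AURKB at 0.34 (SE 0.13; adjusted p = 0.616), NUF2 at 0.32 (SE 0.15; adjusted p = 0.764) and TPX2 at 0.23 (SE 0.10; adjusted p = 0.749). TPX2, which activates AURKA on the spindle, was at 455, 505, 419.8 and 443 CPM with DDR1i and 355, 426, 369 and 413 with RUNXi. The intervals of single members reached 0.212 to 0.415 either side, so differences of that size remain possible.

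Collagen against control gave no call among the members or among all 13092 genes tested by edgeR (0.0%), with 3 members higher and 3 lower at an unadjusted p under 0.05, where 13.4% of genes were (6.42% higher and 6.98% lower). DESeq2 called 415 of all genes (3.17%) and 2 of the members. The members' median was 0.02, and -0.01 to 0.07 when control replicate 1 or collagen replicate 1 was left out, with 21 above 0 and 19 below, where 49.1% of genes were below. MKI67 was below control in each of the 3 collagen libraries, with a log2 fold change of -0.78 (SE 0.16) and an adjusted p of 0.107 in edgeR, 0.000578 in DESeq2 and 0.00714 in a fit of all 4 groups. With collagen replicate 3 included it was -0.51 with an adjusted p of 0.803 by edgeR. CCNB2 was at 107, 93.3, 86.7 and 97.6 CPM in control and above these in all 4 collagen libraries, at 0.46 (SE 0.13; adjusted p = 0.161). PTTG1 was at 209.8, 198, 200.2 and 214 CPM in control, at 0.43 (SE 0.14; adjusted p = 0.210), with replicate 3 among the control values, and at 0.23 without collagen replicate 4 (adjusted p = 0.734). Libraries did not overlap for 4 of the 40 genes (CCNB2 and PTTG1 higher, CENPF and MKI67 lower), where 13.6% of tested genes did not (6.45% higher and 7.17% lower), and for CCNB2 alone with replicate 3 counted in (2.83% of tested genes).

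The members' fold changes followed transcript length. Across the 40 genes, the log2 fold change correlated with log2 transcript length at r = 0.766 (Spearman's rho 0.752) for DDR1i, 0.782 (0.783) for RUNXi and -0.799 (-0.791) for collagen against control, and at -0.032 for DDR1i against RUNXi. Genes are not independent replicates, and the first 3 of these share the collagen libraries, so these are descriptions. Over all tested genes the same relation gave r = 0.235, 0.209 and -0.312 (rho 0.395, 0.382 and -0.451), and 0.002 for the comparison of the inhibitors. Per doubling of transcript length, the members' log2 fold change moved by 0.187, 0.19 and -0.228. Over all tested genes it moved by 0.132, 0.131 and -0.16, so the trend was not particular to the members. With coding length in place of transcript length the members' rho was 0.874, 0.707 and -0.856, against 0.47, 0.424 and -0.503 over all tested genes.

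The 8 shortest members (CKS2, PTTG1, UBE2C, CKS1B, AURKB, CENPA, CCNB2 and CDC20, 616 to 1649 bases) had fold changes below 0 with both inhibitors in 8 of 8 cases, with medians of -0.27 and -0.33. All 8 were above 0 in collagen against control, with a median of 0.37. Of the 8 longest (KIF11, MAD2L1, TOP2A, KIF20B, BUB3, CENPE, CENPF and MKI67, 5016 to 12716 bases), 6 were above 0 with DDR1i and 7 with RUNXi, with medians of 0.20 and 0.23, and 6 were below 0 in collagen against control, with a median of -0.32. MKI67 has the longest transcript of all members. BUB3, which was below 0 with both inhibitors, and MAD2L1, which was with DDR1i, are long through their untranslated parts, with coding lengths of 984 and 615 bases.

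**Figure D4:**
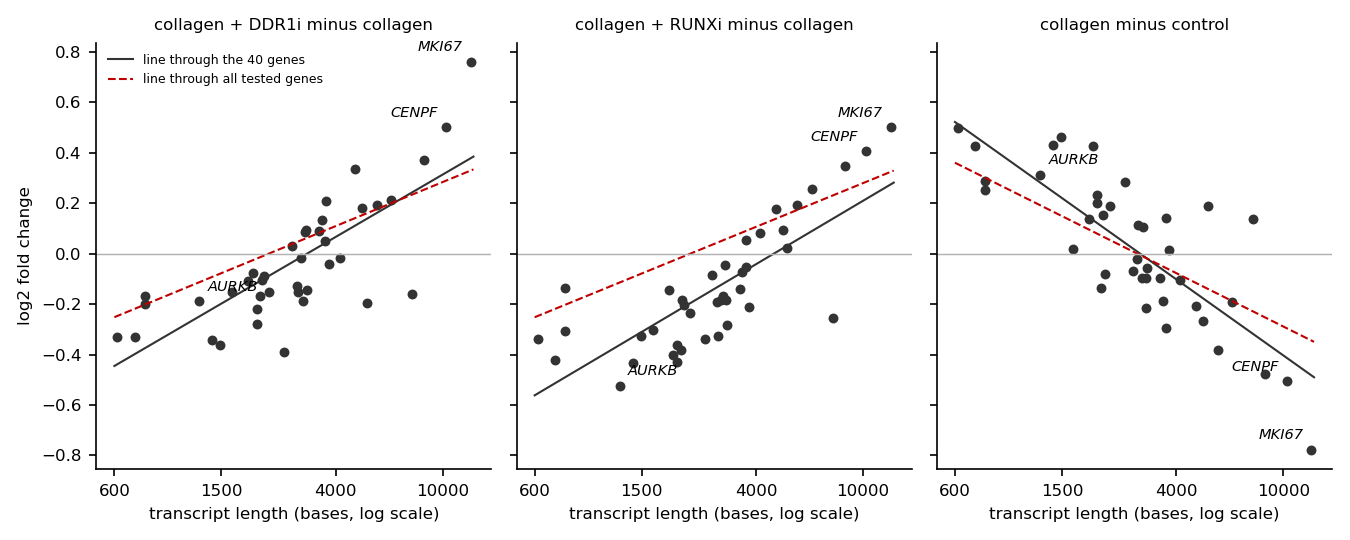
Log2 fold change of the 40 genes against canonical transcript length (log axis) in 3 comparisons, with straight lines through the 40 genes (solid) and through all tested genes (dashed). Short transcripts such as AURKB lie low and long ones such as MKI67 high with both inhibitors, and the order is turned around in collagen against control.

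When the length trend of each library over all genes was taken out before the fit, the members' correlations with length dropped to 0.363, 0.348 and -0.296, and the SD of their fold changes went from 0.245 to 0.158 for DDR1i and from 0.245 to 0.143 for RUNXi. MKI67 was then at 0.38 with DDR1i (adjusted p = 0.0724) and 0.17 with RUNXi (adjusted p = 0.469), and AURKB at -0.33 with RUNXi (adjusted p = 0.215). No member was called with DDR1i in that setting, and only BUB3, which was lower, was called with RUNXi. The members' median went from -0.107 to -0.055 with DDR1i, where that of all tested genes was -0.049. With RUNXi it went from -0.184 to -0.135, where that of all tested genes was -0.014. In single libraries, the mean log2 level of the 8 longest minus that of the 8 shortest was -0.92 in collagen replicate 4, against -0.275 to 0.415 in the other 15. The RUNXi libraries were nearly equal, between 0.081 and 0.137. The slope of log2 level on length over all tested genes was also lowest in collagen replicate 4, at -0.242 per doubling of length. Without that library the members' correlations were 0.561, 0.557 and -0.674, and with replicate 3 included they were 0.770, 0.759 and -0.801. What sets the length trend was not tested.

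**Figure D5:**
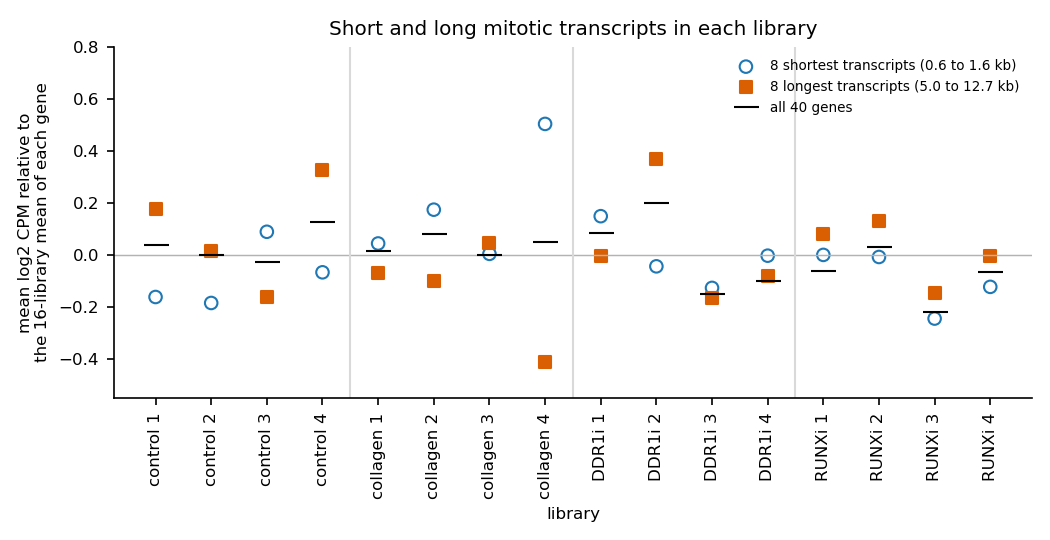
Mean log2 CPM of the 8 shortest (circles) and 8 longest (squares) members and of all 40 (bars) in each library, relative to the 16-library mean of each gene. Collagen replicate 4 has the widest gap, with the shortest at 0.50 and the longest at -0.41.

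Other genes of the cycle are set beside the shares of all tested genes that passed. These were 2.47% with DDR1i (1.69% higher and 0.775% lower) and 4.05% with RUNXi (2.59% higher and 1.46% lower). Of 100 further mitosis genes, 1 rose with DDR1i, INCENP, the scaffold of the passenger complex, at 0.63 (SE 0.17; adjusted p = 0.0427), and none fell. With RUNXi none rose and 4 fell: CENPW at -0.60 (SE 0.16), a histone-fold protein of the inner centromere, SKA1 at -0.61 (SE 0.16) and SKA2 at -0.55 (SE 0.14), which hold kinetochores on microtubules, and UBE2S at -0.60 (SE 0.15), which extends ubiquitin chains for the anaphase-promoting complex. Their adjusted p-values ran from 0.0239 to 0.0336. Medians of this list were -0.04 and -0.12, with 57 and 70 of the 100 below 0, where 49.7% and 49.5% of tested genes were. Of 50 S-phase genes, the replication inhibitor geminin (GMNN) fell with DDR1i (-0.59, SE 0.15, adjusted p = 0.0392). With RUNXi the polymerase subunit POLE rose (0.60, SE 0.14, adjusted p = 0.0184) and the dUTPase DUT fell (-0.51, SE 0.13, adjusted p = 0.0255). Of 15 tested G1 cyclins and CDK inhibitors, CCND2 fell with RUNXi (-0.63, SE 0.15, adjusted p = 0.0209) and none passed with DDR1i. In DDR1i against RUNXi and in collagen against control 0 genes of these 3 lists passed in edgeR. None of these 9 calls held with collagen replicate 3 included (adjusted p 0.189 to 0.618) or without replicate 4 (0.0662 to 0.287), and SKA1, SKA2 and CCND2 held with the length trend taken out.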

How the data were processed

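Counts were read from the table the authors deposited, which holds raw read counts per gene in 16 MCF10A libraries after alignment with STAR to hg19, per the labels. The counting tool, annotation and use of strand are not given in the sources used here. Counts are uncertain where exons overlap on the other strand, as for KIF20A with BRD8 and CDC23, CCNA2 with EXOSC9 and FOXM1 with ITFG2. The same holds for overlaps on the same strand, as of BUB1B with PAK6 and CENPA with SLC35F6. Counts are also uncertain for genes with named pseudogenes (CKS1B with 7, UBE2C with 5, AURKA and DLGAP5 with 2). AURKB, MKI67, CCNB2, BUB1, BUB3, MAD2L1 and CDC20 have 1 each. Doses and times followed the labels and the methods of the collagen stimulation assay. Depth was 12184619 to 44332378 counts per library, and no replicate pair differed by as little as sampling noise (lowest chi-square per degree of freedom 18.72). The biological coefficient of variation was 0.287.

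Tests were made in R 4.3.3 with edgeR 4.0.16 (TMM, filterByExpr, robust quasi-likelihood test, Benjamini-Hochberg adjustment over all tested genes, threshold 0.05). One fit held the 11 collagen, DDR1i and RUNXi libraries and another the 7 collagen and control libraries, both without collagen replicate 3. DESeq2 1.42.0 was an alternative. The scripts were tested on simulated counts. Levels are TMM-normalized CPM. Replicate numbers recur across groups, but deviations of same-numbered libraries correlated at -0.029 to 0.189 and nothing says that a number marks a culture or day, so they were not treated as pairs. Lengths are those of canonical GENCODE transcripts on GRCh37, matched for 21988 of 26473 names (1312 by older symbols), and promoter sequences are from RefSeq. Tables were joined in Python 3.11.15 (pandas 2.3.3) and plotted in matplotlib 3.10.9.

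The members, the lists of other cell cycle genes and the tests were chosen with earlier results of these data known. The genes named are the 3 members with the smallest p in each comparison and a set of level genes fixed by role. ANLN, NUF2, CCNB2 and other genes whose libraries did not overlap were named after their values were seen.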

Additional observations from a re-analysis of the deposited data

Results flagged for a closer look

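In a group of 4 libraries, a value was marked when its gap to the nearest other, as a share of the range of the group, was above Dixon's 95% critical value. Of 160 groups tested, 12 were marked, where chance marks about 1 in 20, or 8. Collagen replicate 4 was marked as high for CDK1 (208 CPM) and AURKB (126 CPM) and as low for KIF20A (151 CPM). Control replicate 4 was high for CDK1 (175 CPM) and BUB1 (148 CPM) and low for CDC25B (312 CPM). Control replicate 3 was high for FOXM1 (234 CPM) and collagen replicate 2 for KIF2C (152 CPM). DDR1i replicate 2, which had the highest mean over the 40 genes, was high for TOP2A (475 CPM). Among the RUNXi libraries, replicate 3 was low for CDC20 (316 CPM), replicate 2 high for CENPF (424 CPM) and replicate 1 high for BIRC5 (172 CPM).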

How the results depend on the processing

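Fold changes of the 3 genes with the smallest p in each comparison were followed through the alternatives, and none changed sign as long as the groups compared stayed the same. With control as the reference, MKI67 was at -0.03 with DDR1i and -0.28 with RUNXi, and PTTG1 at 0.005 with RUNXi. Medians over the 40 genes moved by less than the spread between replicates, except in collagen against control, where it was -0.084 with the length trend removed. Scalings moved the median of all genes by under 0.1. Members called with DDR1i against collagen numbered 1, but 4 by DESeq2, 2 with no filter on low counts, 3 with the GC trend removed, and 0 with collagen replicate 3 included, with control as the reference or with the length trend removed. With RUNXi they numbered 2, but 6 by DESeq2, 4 with no filter or with the GC trend removed, 1 with all 4 groups in one fit or the length trend removed, and 0 with replicate 3 included, with control as the reference or with robust fitting off. Calls over all tested genes moved too: with DDR1i from 334 to 824, 755 and 539 in the first 3 of these settings and to 9, 17 and 162 in the last 3, and with RUNXi from 549 to 1144, 1046 and 760, and to 60 with replicate 3 included, 35 with control as the reference and 203 with the length trend removed. In collagen against control members called numbered 0, but 2 by DESeq2 or with no filter and 1 with all 4 groups in one fit or the GC trend removed, where 0 of all genes became 415, 284, 313 and 22. Leaving out 1 library at a time gave 1 to 3 calls with DDR1i, 0 to 6 with RUNXi, and 0 in the other comparisons. With RUNXi, 6 were called without collagen replicate 1, and 0 without collagen replicate 4 or RUNXi replicates 1, 3 or 4, while calls over all genes went from 549 to 715 and to 123, 334, 190 and 224. The cause was not tested.

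With the replicate number as a block, 2 members were called with DDR1i, 3 with RUNXi and 0 in the other comparisons, and MKI67 was at 0.80 with DDR1i. With the block and collagen replicate 3 included, a fit added after the data were seen, 0 and 1 were called. The numbers are not shown to pair the libraries. DDR1i and RUNXi values rest on 3 collagen libraries, and depth did not limit any member, whose lowest count was 257.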

Other observations

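The correlations in this paragraph were taken over the 16 libraries after each group's mean was subtracted from the log2 levels. The genes that followed the mean of the 40 members most closely were USP14 (r = 0.918), TOMM70A (0.912), GPBP1 (0.91) and PAPOLA (0.90). HSPD1, KATNA1, RAD18, NCAPG, RAD17 and GNPAT came next (0.846 to 0.874). Of these 10, only the condensin subunit NCAPG is on the list of further mitosis genes. Over the 780 pairs of members the median correlation across libraries was 0.249, and 26.7% of pairs exceeded 0.5. No value for pairs of other genes is given beside these, so they do not show that the members are particular. The closest pair was KIF20B and ECT2 (0.945) and the most opposed BUB3 and MKI67 (-0.80). DLGAP5 (0.892) and BUB1 (0.838) followed the mean of the other 39 members most closely. The lowest values were those of MKI67 (0.015), CKS1B (-0.214) and FOXM1 (-0.302), with AURKB (0.037), UBE2C (0.049) and BIRC5 (0.077) next. These correlations describe variation between libraries of the same group, which still holds differences in depth and in the length trend.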
